A study of Mus musculus with 6 samples.

Results

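The 10 genes described here encode the enzymes, and 1 activating protein, that turn membrane arachidonic acid into prostaglandins, thromboxane and leukotrienes: Pla2g4a, Ptgs1, Ptgs2, Ptges, Tbxas1, Hpgds, Alox5, Alox5ap, Lta4h and Ltc4s. They were taken by symbol, by a rule that uses no measured value but was written with earlier results of these data known, from the 55487 gene identifiers measured, of which 13829 were tested, and all 10 were among the tested genes. RNA-seq was performed on J774 cells, a mouse macrophage line (clone E in the study's methods), 3 libraries of cells transfected with control siRNA and 3 of cells transfected with siRNA against NCOA4, the receptor that brings ferritin to the lysosome for iron release. Both groups were the same line and both received siRNA in liposomes, so the labels set the groups apart by the siRNA alone, and no time between transfection and RNA extraction is given in the labels. The labels call the libraries of a group biological replicates and do not say how they were separated. The p-values therefore measure the spread between these libraries, which may in part be technical, and the results hold for transcripts of 1 cell line and 1 transient knockdown.

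Arachidonic acid is released from membrane phospholipids by cytosolic phospholipase A2. The cyclooxygenases, heme enzymes encoded by Ptgs1 and Ptgs2, convert it to prostaglandin H2, from which terminal synthases make prostaglandin E2 (Ptges), thromboxane A2 (Tbxas1, also a heme enzyme) and prostaglandin D2 (Hpgds). In the other branch, the non-heme iron enzyme encoded by Alox5 acts with the membrane protein of Alox5ap to form leukotriene A4, which is hydrolysed to leukotriene B4 by the Lta4h product or joined to glutathione by the Ltc4s product. Macrophages are known for making both kinds of mediator.

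Of the 10 genes, 2 were called higher with NCOA4 siRNA, Tbxas1 and Ltc4s, and none lower. A call required an adjusted p under 0.05 in limma, with Benjamini-Hochberg adjustment over all tested genes, and a fold change above 1.5. Alox5ap passed the adjusted p with a smaller fold change, which made 3 genes higher and 0 lower by the adjusted p alone. At an unadjusted limma p under 0.05 the counts were 4 higher and 0 lower, where 12.7% of all tested genes were higher and 8.84% lower. Limma-voom on the rebuilt reads gave 4 higher and 0 lower by adjusted p, against 5.03% and 5.39% of its 13609 genes, and 4 higher and 1 lower by unadjusted p, against 11.9% and 12.4%. In the main test the same share over all tested genes was 0.861% called higher and 0.318% called lower, and by adjusted p 5.42% in either direction, 3.11% higher and 2.31% lower. The median log2 fold change of the 10 genes was 0.10, beside 0.03 for all tested genes, with 7 genes above 0 and 3 below. In 7 of the 10 genes the libraries of the groups did not overlap, 5 of them higher and 2 lower with NCOA4 siRNA, where 28.4% of all tested genes did not overlap, 16.6% higher and 11.8% lower. Fold changes are on the scale of log2(TPM + 0.5), which understates the change of genes with low values. TPM is a relative abundance scaled by library size and gene length. Levels compared between genes therefore depend on the length taken for each gene. That length counts every annotated exon, with 9094 bases for Tbxas1, 3931 for Ptges and 1014 for Ltc4s, whether or not the exon was used in these cells.

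Ncoa4 itself was measured at 19.7, 22.5 and 22.4 TPM with control siRNA and at 9.63, 8.60 and 8.88 TPM with NCOA4 siRNA, a log2 fold change of -1.21 (limma adjusted p = 0.00127). Between 15502131 and 18282107 reads per library stood behind the values, as rebuilt from TPM. Control replicate 1 stood apart from the other controls: the chi-square per gene was 10.8 and 10.9 against control replicates 2 and 3, 3.42 between those, and 1.91 to 2.27 among the NCOA4 siRNA libraries. It also had 12.9% of its TPM on mitochondrial genes, where the other 5 libraries had 9.36 to 10.2%. Over all tested genes, 430 passed the adjusted p higher and 320 lower, and a change of scaling moved this split: with each library centred on its median it was 348 higher and 622 lower. The called genes numbered 119 higher and 44 lower, against 105 and 68 with median centring and 99 and 61 with quantile normalization. 

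Control replicate 1 had the lowest control value for each of the 10 genes. For every one of them with a log2 fold change above 0, it was the lowest of all libraries. Without control replicate 1, Tbxas1 (log2 fold change 1.08, limma adjusted p = 0.0155) and Alox5ap (0.23, adjusted p = 0.0127) passed the threshold and Ltc4s did not (0.70, adjusted p = 0.0718). The median log2 fold change of the 10 genes was then 0.045, against 0.01 for all tested genes.

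**Figure D1:**
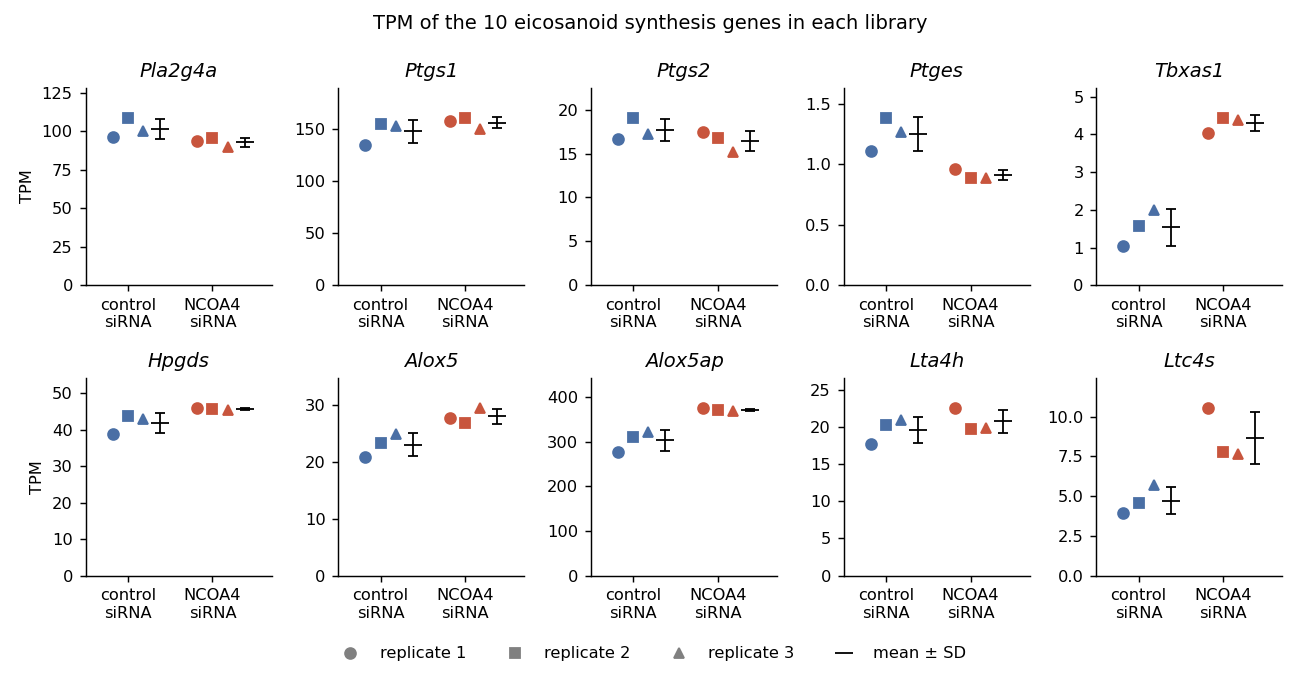
TPM of each synthesis gene (vertical axes from 0, separate for each gene) in the 3 control siRNA libraries (blue) and the 3 NCOA4 siRNA libraries (red), with the mean ± SD in black. The Tbxas1 values are 1.03 to 2.00 TPM in the controls and 4.05 to 4.44 TPM with NCOA4 siRNA, and the Ltc4s values 3.95 to 5.67 and 7.68 to 10.5 TPM.

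The order of the levels in TPM, which depends on the gene lengths taken, was the same in both groups. With control siRNA, Alox5ap was highest at a mean of 304 TPM, followed by Ptgs1 at 148, Pla2g4a at 102 and Hpgds at 41.9 TPM, with no overlap between neighbours in this order. Alox5 (23.0 TPM), Lta4h (19.6 TPM) and Ptgs2 (17.7 TPM) came next, and their ranges overlapped from each to the next. Ltc4s followed at 4.73 TPM, and Tbxas1 (1.53 TPM) and Ptges (1.25 TPM) were last with overlapping ranges. With NCOA4 siRNA no neighbours overlapped, since Alox5, Lta4h and Ptgs2 stood at 27.9, 20.7 and 16.4 TPM and Tbxas1 and Ptges at 4.29 and 0.912 TPM.

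The J774 libraries were checked against cell type markers, which matter here because mast cells and platelets are known for Ltc4s, Hpgds and Tbxas1. All 10 macrophage markers were above 0, with a summed level of 8650 to 8841 TPM in the controls and of 8981 to 9083 TPM in the NCOA4 siRNA libraries, led by Lyz2, the macrophage lysozyme, and the lysosomal protein Cd68. In 9 of these 10 markers the groups did not overlap, 7 higher and 2 lower with NCOA4 siRNA, where 28.4% of all tested genes did not overlap. Of the 10, 4 passed the adjusted p higher and 1 lower, and 2 of the 4 were called. The called ones were Adgre1 (log2 fold change 0.61, limma adjusted p = 0.0248) and Fcgr1 (0.59, adjusted p = 0.00436). Mertk (0.48, adjusted p = 0.00965) and Csf1r (0.31, adjusted p = 0.0218) also passed higher. The lower one was Cd14 (log2 fold change -0.27, limma adjusted p = 0.0361). Cd68 did not pass (-0.22, limma adjusted p = 0.178), but all its NCOA4 siRNA libraries were below all controls. Of 8 mast cell and basophil markers, 7 were listed at 0 in every library and the sum was at most 0.328 TPM. Of 8 platelet and megakaryocyte markers, 4 were listed at 0 in every library, among them the surface receptor genes Gp1ba, Gp1bb and Gp6, and Gp9 and Itga2b stood at no more than 0.435 and 0.122 TPM with overlapping groups. Ppbp, a platelet chemokine gene, was at 0.322, 0 and 0 TPM in the controls and at 1.43, 0.847 and 1.22 TPM in the NCOA4 siRNA libraries, on at most 9 reads (log2 fold change 1.48, limma adjusted p = 0.0515). The summed platelet level of 646 to 782 TPM in the controls and 926 to 945 TPM in the NCOA4 siRNA libraries came almost wholly from the chemokine gene Pf4 (log2 fold change 0.35, adjusted p = 0.0489). The neutrophil and eosinophil markers, 4 of 9 listed at 0, summed to 19.2 to 25.8 TPM and 15.7 to 20.6 TPM, nearly all of it S100a8. The lymphocyte markers (6 of 8 listed at 0) and the epithelial and fibroblast markers (5 of 8) summed to at most 0.34 and 0.175 TPM. The 4 macrophage markers that passed higher, Pf4 and the low Ppbp values rose with NCOA4 siRNA, as did Tbxas1, Ltc4s and Alox5ap. Itgam, Lyz2 and Ptprc did not pass, but all their NCOA4 siRNA libraries were above all controls. Cd14 and Cd68 fell. The part of these markers in the results was not tested.

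The sequence just upstream of the transcription start could be read for 9 of the 10 genes from the RefSeq promoter windows (GRCm38.p6), which run 250 bases before to 50 after the start, and Alox5ap is named only. These windows were searched on both strands for 5 motifs, chosen after the sequences had been seen. They were GAGGAAGT, an ETS site of the type bound by the macrophage factor PU.1, and TTGCGCAA, a palindrome bound by C/EBP factors. The TATA box was searched as TATAAA. Part of the cyclic AMP response element, on which CREB factors are known to act, was searched as ACGTCA. The GC box, a frequent element of promoters without a TATA box, was searched as GGGCGG. Stretches of 30 bases are shown for both cyclooxygenases, Ptgs1 and Ptgs2, and for Hpgds and Tbxas1, synthases that use the same prostaglandin H2, so that the letters around a motif upstream of each start can be compared. Capitals mark the motif, and positions count from the start base as 0.
Ptgs1: aggctggagcaGAGGAAGTtggcggtcagc
Hpgds: gcttttaggtgGAGGAAGTggcctctggct
Ptgs2: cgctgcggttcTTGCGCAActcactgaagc
Tbxas1: ttccttcctcttTATAAAgaaaggcacact

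The Ptgs1 stretch lies on the plus strand at chr2:36230391-36230420 with its motif at -24 to -17, and the Hpgds stretch on the minus strand at chr6:65144761-65144790 with the same motif at -49 to -42. GAGGAAGT was found in 3.2% of all 32851 windows. The Ptgs2 stretch (plus strand, chr1:150099951-150099980) holds its motif at -69 to -62, and TTGCGCAA reads the same on both strands and was found in 0.183% of windows. Ptgs2 also had ACGTCA at 12 to 17, a motif of 7.51% of windows. The Tbxas1 stretch (plus strand, chr6:38918963-38918992) holds TATAAA at -11 to -6, overlapped by the same motif on the other strand at -13 to -8, and 13.6% of windows hold it, among them 1 of the windows of Pla2g4a, on the other strand at -200 to -195. The RefSeq start of Tbxas1 lies 43582 bases inside the gene as GENCODE draws it, and that of Ptges 26566 bases inside. For the Pla2g4a window that holds TATAAA the start lies 38851 bases inside, and the Pla2g4a window at the gene start held none of the 5 motifs. GGGCGG, found in 35.7% of windows, was in those of Ptgs2, Ptges and Alox5, and Lta4h and Ltc4s held none of the 5 motifs. These matches describe the letters only, and no binding was measured.

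Pla2g4a, the cytosolic phospholipase A2 that releases arachidonic acid (chr1:149829618-149961290, GRCm38, minus strand), was measured at 96.3, 109 and 100 TPM with control siRNA and at 93.8, 95.6 and 89.8 TPM with NCOA4 siRNA. Every NCOA4 siRNA library was below every control library, but by little. The means were 102 ± 6.45 and 93.1 ± 2.98 TPM (SD, n = 3 each), and the log2 fold change of -0.13 (95% confidence interval -0.26 to 0.01) did not pass (limma adjusted p = 0.25). For this gene, as for every gene whose groups did not overlap, the exact two-sided permutation test of TPM gave p = 0.1, the smallest that 3 libraries against 3 allow.

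Neither cyclooxygenase gene passed the test, and in both the libraries of the groups overlapped. Ptgs1, the constitutive form (chr2:36230426-36252272, plus strand), was measured at 135, 155 and 153 TPM with control siRNA and at 158, 161 and 150 TPM with NCOA4 siRNA. Control replicate 1 was the lowest library, and the log2 fold change was 0.08 (95% confidence interval -0.07 to 0.23, limma adjusted p = 0.498). Ptgs2, the form induced by inflammatory stimuli (chr1:150100031-150108227, plus strand), was at 16.7, 19.1 and 17.3 TPM and at 17.4, 16.7 and 15.1 TPM. The highest library was a control and the lowest an NCOA4 siRNA library, with a log2 fold change of -0.10 (-0.29 to 0.08, adjusted p = 0.501).

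The 3 terminal prostanoid synthases differed from each other. Tbxas1, thromboxane A synthase (chr6:38875404-39084585, plus strand), was measured at 1.03, 1.56 and 2.00 TPM with control siRNA and at 4.05, 4.44 and 4.39 TPM with NCOA4 siRNA. These values stood on 54, 86 and 95 reads in the controls and on 214, 220 and 241 reads with NCOA4 siRNA. The groups lay far apart, and control replicate 1 was the lowest library. The mean rose from 1.53 ± 0.485 to 4.29 ± 0.212 TPM (n = 3 libraries each, ± SD), which gave a log2 fold change of 1.27 (SE 0.194, 95% confidence interval 0.80 to 1.73, limma adjusted p = 0.0178), or 2.40-fold with an interval of 1.75 to 3.31. It ranked at 92 of 13829 tested genes from the highest log2 fold change down. The control libraries spread by 31.7% of their mean, more than the 11.3% that counting error alone gives at these reads. Without NCOA4 siRNA replicate 1, 2 or 3 its log2 fold change was 1.30, 1.24 and 1.25, with adjusted p of 0.0765, 0.0852 and 0.0832, all above the threshold. In those 3 fits 174 to 183 of all tested genes passed, where 750 did with every library. The antisense gene Gm42962 shares 144 exon bases with Tbxas1 and was at a mean of 0 TPM in the controls and of 0.0494 TPM in the NCOA4 siRNA libraries. Hipk2 lies on the opposite strand and shares no exon base with it.

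Ptges, the inducible prostaglandin E synthase (chr2:30889471-30929863, minus strand), was the lowest of the 10 genes, at 1.11, 1.39 and 1.27 TPM with control siRNA and at 0.964, 0.887 and 0.885 TPM with NCOA4 siRNA. Every NCOA4 siRNA library was below every control, on 25, 33 and 26 reads against 22, 19 and 21. The log2 fold change of -0.31 (SE 0.184, 95% confidence interval -0.75 to 0.13) did not pass (limma adjusted p = 0.382). Counting error alone is 18.9% of the mean in the controls and 22.0% with NCOA4 siRNA, and the observed spread was smaller, at 11.1% and 4.9%.

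Hpgds, the hematopoietic prostaglandin D synthase (chr6:65117293-65144908, minus strand), was measured at 38.8, 43.9 and 43.0 TPM with control siRNA and at 45.9, 45.6 and 45.4 TPM with NCOA4 siRNA. All NCOA4 siRNA libraries were above all controls, and the difference was small. Its log2 fold change was 0.12 (95% confidence interval -0.01 to 0.26) and did not pass (limma adjusted p = 0.257).

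All 4 genes of the leukotriene branch had a log2 fold change above 0, with a median of 0.29, beside 0.08 for the 5 genes from cyclooxygenases to prostanoid synthases. Of the 4, 2 passed the adjusted p and 1 was called, where 3.11% of all tested genes passed higher and 0.861% were called higher. Without control replicate 1 the log2 fold change was 0.004 for Lta4h and 0.212 for Alox5. Alox5ap, the membrane protein that presents arachidonic acid to the lipoxygenase (chr5:149264767-149288153, plus strand), was measured at 278, 311 and 323 TPM with control siRNA and at 375, 370 and 369 TPM with NCOA4 siRNA. The groups did not overlap and the NCOA4 siRNA libraries lay closer together than the controls. The mean rose from 304 ± 23.2 to 371 ± 3.2 TPM (n = 3 libraries each, ± SD), which gave a log2 fold change of 0.29 (SE 0.0587, 95% confidence interval 0.15 to 0.43, limma adjusted p = 0.0382), or 1.23-fold. The adjusted p was 0.073 without control replicate 2 and 0.132 to 0.148 with each NCOA4 siRNA library left out in turn.

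Alox5, the arachidonate lipoxygenase (chr6:116410077-116461178, minus strand), was measured at 20.8, 23.3 and 24.8 TPM with control siRNA and at 27.7, 26.7 and 29.3 TPM with NCOA4 siRNA. The groups did not overlap, but the log2 fold change of 0.28 (SE 0.0749, 95% confidence interval 0.10 to 0.46) did not pass (limma adjusted p = 0.0881). With limma-voom on the rebuilt reads the adjusted p was 0.0292.

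Lta4h, the hydrolase that makes leukotriene B4 (chr10:93453411-93484875, plus strand), was at 17.6, 20.3 and 20.9 TPM with control siRNA and at 22.5, 19.8 and 19.9 TPM with NCOA4 siRNA. The groups overlapped, and the log2 fold change was 0.08 (95% confidence interval -0.12 to 0.28, limma adjusted p = 0.647).

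Ltc4s, leukotriene C4 synthase (chr11:50236461-50238616, minus strand), was measured at 3.95, 4.56 and 5.67 TPM with control siRNA and at 10.5, 7.78 and 7.68 TPM with NCOA4 siRNA. The groups did not overlap, and NCOA4 siRNA replicate 1 stood above the other two. The reads were 23, 28 and 30 in the controls and 62, 43 and 47 with NCOA4 siRNA. The mean rose from 4.73 ± 0.875 to 8.66 ± 1.61 TPM (n = 3 libraries each, ± SD), which gave a log2 fold change of 0.81 (SE 0.166, 95% confidence interval 0.42 to 1.20, limma adjusted p = 0.0408), or 1.75-fold with an interval of 1.33 to 2.30. The controls spread by 18.5% of their mean, close to the 19.2% of counting error. The adjusted p was 0.0718 and 0.0956 without control replicates 1 and 2 and 0.102 to 0.122 with each NCOA4 siRNA library left out in turn. Ltc4s shares 268 exon bases with the antisense gene Gm26542, at a mean of 1.14 TPM in the controls and of 0.985 TPM in the knockdown libraries, and the strand setting of the authors' counting is not given in the sources used here, so reads of the shared stretch may belong to either gene.

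**Figure D2:**
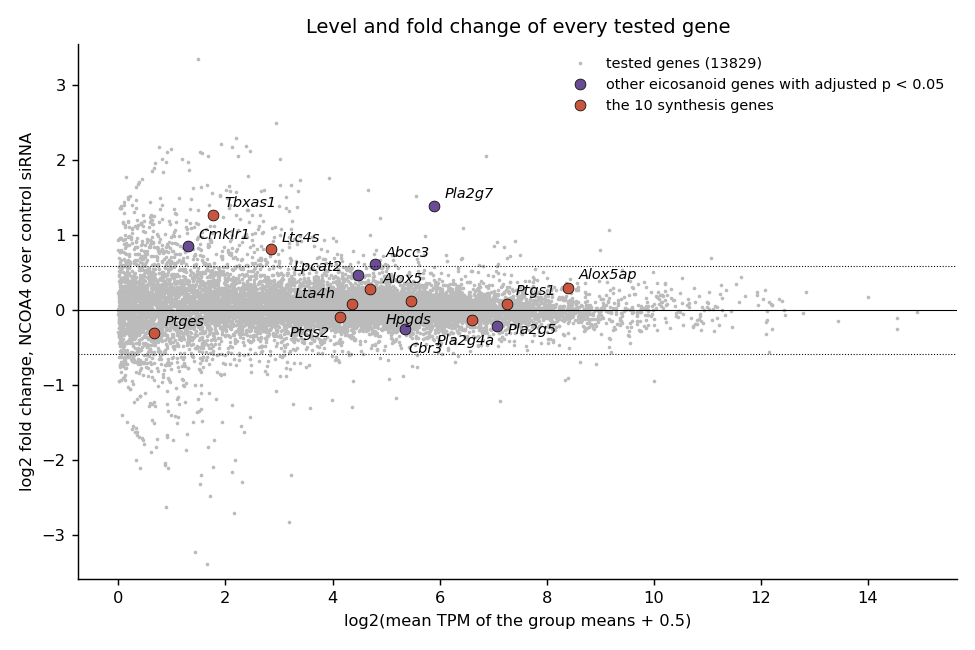
Each tested gene by its level (horizontal, log2 of the mean TPM plus 0.5) and its log2 fold change with NCOA4 siRNA (vertical), with the 10 synthesis genes in red and the other eicosanoid genes that passed the adjusted p in purple; the dotted lines mark a fold change of 1.5. Tbxas1 at 1.27 and Ltc4s at 0.81 lie above the upper line at low levels, and Alox5ap at 0.29 lies below it at a high level.

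Ratios of genes that share a substrate or act in series were taken within each library, as log2 of (TPM + 0.5), and compared by an exact two-sided permutation test over the 20 arrangements of the 6 libraries, adjusted over the 5 ratios. No ratio can pass by this test, whose p cannot go below 0.1. The ratio of Tbxas1 to Ptges was -0.07, 0.13 and 0.50 with control siRNA and 1.64, 1.83 and 1.82 with NCOA4 siRNA, a difference of 1.58 (exact permutation p = 0.1, adjusted 0.125). In plain TPM, Tbxas1 stood at 0.934, 1.13 and 1.58 times Ptges in the controls and at 4.20, 5.01 and 4.96 times with NCOA4 siRNA, so the groups were far apart. This ratio covers Ptges alone. The other prostaglandin E synthase genes in the lists stood higher, with overlapping groups. Ptges2 was at a mean of 15.3 TPM in the controls and 15.7 TPM with NCOA4 siRNA, and Ptges3 at 427 and 408 TPM. The ratio of Tbxas1 to Hpgds was -4.68, -4.43 and -4.12 with control siRNA and -3.35, -3.22 and -3.23 with NCOA4 siRNA, and that of Ltc4s to Lta4h, which compete for leukotriene A4, was -2.03, -2.04 and -1.80 against -1.06, -1.29 and -1.32. Neither overlapped, with differences of 1.14 and 0.73 (each exact permutation p = 0.1, adjusted 0.125).

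The ratio of Ptgs2 to Ptgs1 was -2.98, -2.99 and -3.11 with control siRNA and -3.14, -3.23 and -3.27 with NCOA4 siRNA. It was lower in every NCOA4 siRNA library, by 0.18 (exact permutation p = 0.1, adjusted 0.125), while neither gene passed the test on its own. Alox5ap and Alox5 kept close to one ratio, since Alox5ap stood at 13.3, 13.3 and 13.0 times Alox5 in TPM with control siRNA and at 13.5, 13.9 and 12.6 times with NCOA4 siRNA. The groups overlapped, and the difference on the log2 scale was 0.01 (exact permutation p = 0.8, adjusted 0.8).

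**Figure D3:**
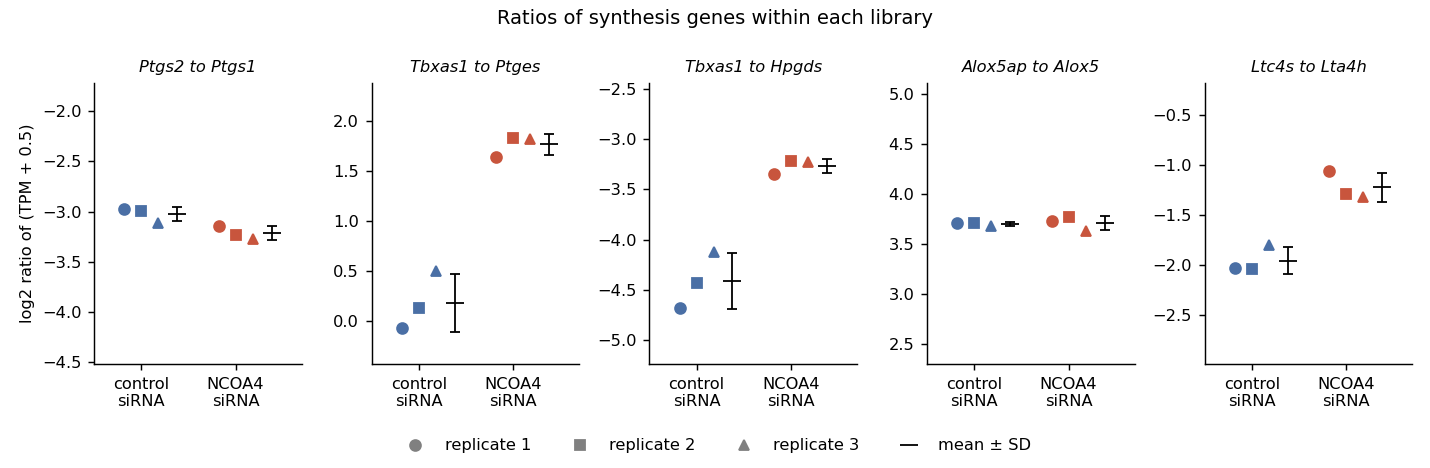
Log2 ratio of 5 pairs of synthesis genes in each library (vertical axes of equal span), with control siRNA in blue, NCOA4 siRNA in red and the mean ± SD in black. The groups lie apart in 4 pairs, most for Tbxas1 to Ptges with a difference of 1.58, and overlap for Alox5ap to Alox5.

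Among all tested genes, the ones whose log2 values followed Tbxas1 most closely over the 6 libraries were Rab3il1 (Pearson r = 0.998), Cyb5rl (0.997) and Ern1 (0.996). For Ltc4s they were Notch2 (0.997), Atraid (0.995) and Ifngr1 (0.995). These points share the group difference and the library, and the most alike genes were picked from 13829, so the coefficients are descriptions. The size of the change was not alike: Rab3il1 went from 25.1, 27.9 and 29.7 TPM to 37.1, 37.1 and 36.9 TPM, a log2 fold change of 0.42, and Notch2 differed by 0.14.

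The rest of the eicosanoid system was described with 83 genes in 7 lists. Of these, 48 were tested, 20 were listed at 0 in every library, and the remaining 15 were below the filter on low values. With NCOA4 siRNA, 4 of the 48 passed the adjusted p higher and 2 lower, and 3 of them were called, all higher. The median log2 fold change of the 48 was 0.04, beside 0.03 for all tested genes, with 28 above 0 and 20 below. In 20 of the 48 the groups did not overlap, 15 higher and 5 lower. Over all tested genes 5.42% passed the adjusted p, 0.861% were called higher, and 28.4% did not overlap, 16.6% higher and 11.8% lower.

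Of 9 tested genes among the other phospholipases A2, Pla2g7 rose and Pla2g5 fell. Pla2g7, the secreted hydrolase of platelet-activating factor, was measured at 34.9, 32.8 and 29.6 TPM with control siRNA and at 89.0, 79.4 and 88.0 TPM with NCOA4 siRNA. The groups lay far apart, and the log2 fold change was 1.39 (SE 0.0746, limma adjusted p = 0.00118). It is not an enzyme of arachidonate release. Pla2g5, a secreted phospholipase that can release arachidonate, was at 139, 142 and 153 TPM and at 122, 125 and 124 TPM, lower in every NCOA4 siRNA library (log2 fold change -0.22, adjusted p = 0.0369). Its adjusted p was 0.0232 without control replicate 1, and above 0.05 and up to 0.152 with each of the others left out in turn. Its level was above that of Pla2g4a in both groups. The calcium-independent Pla2g6 (0.12, adjusted p = 0.278) and the cytosolic Pla2g4c (0.38, adjusted p = 0.284) did not pass.

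Among 10 tested genes of arachidonate activation and re-esterification, Lpcat2 alone passed. Lpcat2, which remodels phosphatidylcholine and also makes platelet-activating factor, was at 18.9, 18.1 and 17.7 TPM with control siRNA and at 25.3, 25.7 and 25.4 TPM with NCOA4 siRNA, with no overlap (log2 fold change 0.47, limma adjusted p = 0.00483). Lpcat3, which returns arachidonate to phospholipids, had a log2 fold change of -0.13 (adjusted p = 0.203) and Lpcat4 one of -0.18 (adjusted p = 0.206). Of the list, 3 genes were above 0 and 7 below.

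Of the 6 tested other prostanoid synthases, Cbr3, a carbonyl reductase, fell from 43.9, 44.9 and 43.4 TPM to 37.2, 35.3 and 37.4 TPM, with every NCOA4 siRNA library below the controls (log2 fold change -0.26, limma adjusted p = 0.0224). Its adjusted p was 0.0321 without control replicate 1, and above 0.05 with each of the others left out in turn. Cbr1, its neighbour in the family, which can reduce prostaglandin E2, had -0.14 (adjusted p = 0.39) and Fam213b 0.23 (adjusted p = 0.455). Ptgds, the lipocalin-type prostaglandin D synthase, and Akr1c18 were listed at 0 in every library, and the prostacyclin synthase Ptgis was below the filter.

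None of the 6 tested other lipoxygenases and leukotriene enzymes passed in the main limma test, where 2 had an unadjusted p under 0.05, both higher. Dpep2, a dipeptidase that trims leukotriene D4, came nearest (log2 fold change 0.50, limma adjusted p = 0.082), followed by the glutathione transferase Mgst1 (0.84, adjusted p = 0.0856), and both had all NCOA4 siRNA libraries above the controls. Dpep2 passed with limma-voom (adjusted p = 0.0442) and with limma without a variance trend (adjusted p = 0.045). A second identifier carries the Dpep2 symbol and was not used. Alox15, the other macrophage lipoxygenase tested, stood at 0.923, 0.874 and 0.391 TPM and at 0.140, 0.449 and 0.270 TPM, with overlap (-0.63, adjusted p = 0.319). Ggt1, Ggt5 and Dpep1, which act on leukotrienes C4 and D4, were listed at 0 in every library.

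In eicosanoid transport and breakdown, 1 of 9 tested genes passed. Abcc3, an exporter of conjugated organic anions, rose from 19.9, 21.5 and 23.0 TPM to 33.1, 32.0 and 33.6 TPM, with no overlap (log2 fold change 0.61, limma adjusted p = 0.00516). With median centring or quantile normalization and without control replicate 1 its fold change was at or under 1.5 while its adjusted p passed. Cyp4f18, which hydroxylates leukotriene B4, had a log2 fold change of 0.64 (adjusted p = 0.0817), Cyp4f16 0.27 (adjusted p = 0.269) and Abcc4, an exporter of prostaglandins, -0.10 (adjusted p = 0.267). Hpgd, the dehydrogenase that inactivates prostaglandins, and the uptake carrier Slco2a1 were listed at 0 in every library.

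Of the 8 tested receptors, 1 passed in the main limma test and 3 with limma-voom on the rebuilt reads, 2 higher and 1 lower. Cmklr1, the chemerin receptor, also described as a receptor of a resolvin, rose from 1.02, 1.36 and 1.41 TPM to 2.58, 2.75 and 2.63 TPM without overlap (log2 fold change 0.85, SE 0.155, limma adjusted p = 0.0292), and it is not a leukotriene receptor. Its values stood on 20, 28 and 25 reads in the controls and on 51, 51 and 54 with NCOA4 siRNA. The adjusted p was 0.0588 and 0.0608 without control replicates 2 and 3 and 0.113 to 0.127 with each NCOA4 siRNA library left out in turn. Ptafr, the receptor of platelet-activating factor (0.35, adjusted p = 0.0857), Fpr2, a receptor of formyl peptides and lipoxin (0.93, adjusted p = 0.102), and Cysltr1, the receptor of cysteinyl leukotrienes (0.22, adjusted p = 0.174), did not pass, although all NCOA4 siRNA libraries were above all controls in each. With limma-voom the adjusted p of Ptafr was 0.0304. Ptgir, the prostacyclin receptor, was the highest of the 3 tested prostanoid receptors at 97.6, 103 and 104 TPM in the controls and 93.2, 85.5 and 94.4 TPM in the NCOA4 siRNA libraries (-0.16, adjusted p = 0.146). All its NCOA4 siRNA libraries were below all controls, and the adjusted p was 0.0299 with limma-voom and 0.0398 with median centring. The prostaglandin E receptors Ptger2 (-0.07, adjusted p = 0.872) and Ptger4 (0.02, adjusted p = 0.966) differed by less than their spread. The thromboxane receptor Tbxa2r was listed at 0 in 5 of 6 libraries.

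**Figure D4:**
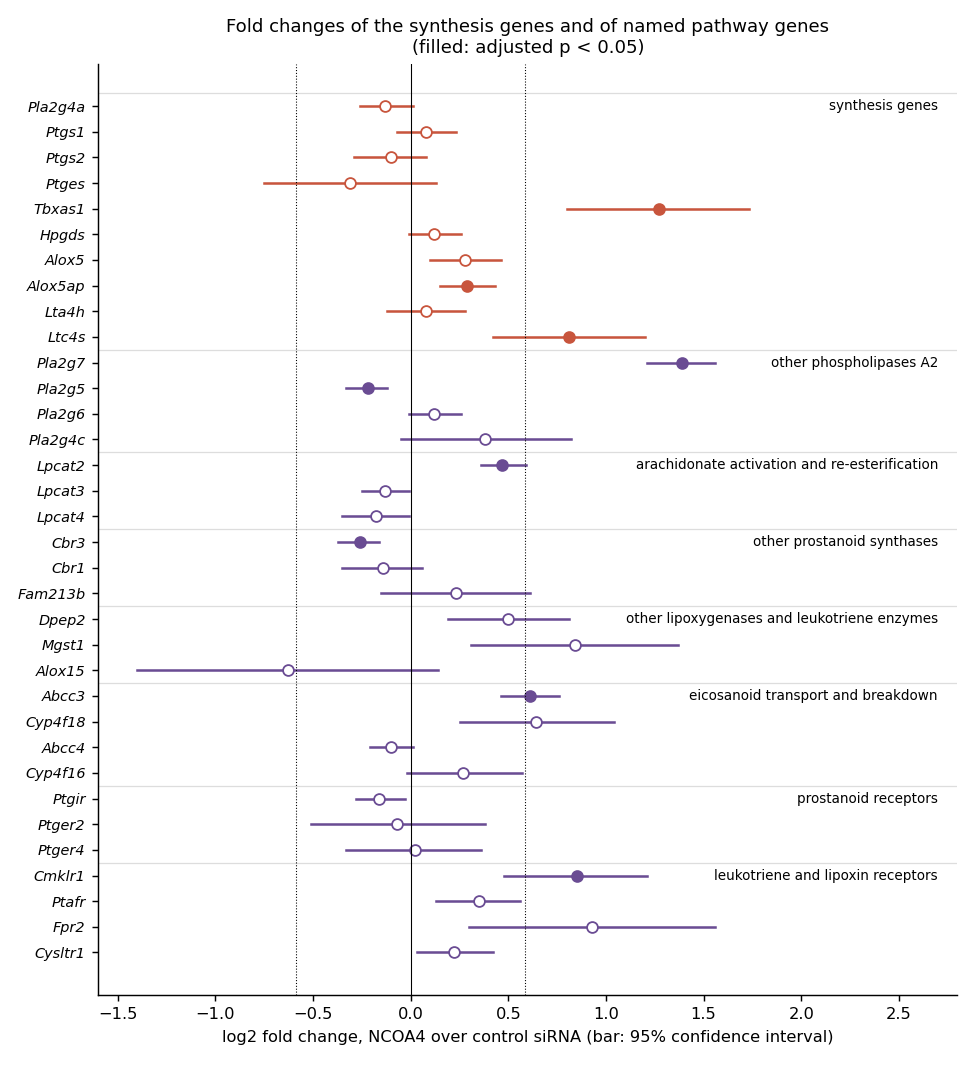
Log2 fold change with NCOA4 siRNA (horizontal) of the 10 synthesis genes (red) and of the named genes of the other 7 lists (purple), with 95% confidence intervals; filled points have an adjusted p under 0.05 and the dotted lines mark a fold change of 1.5. Tbxas1 and Pla2g7 lie farthest to the right, at 1.27 and 1.39, and the interval of Ptges, -0.75 to 0.13, spans 0.

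**Figure D5:**
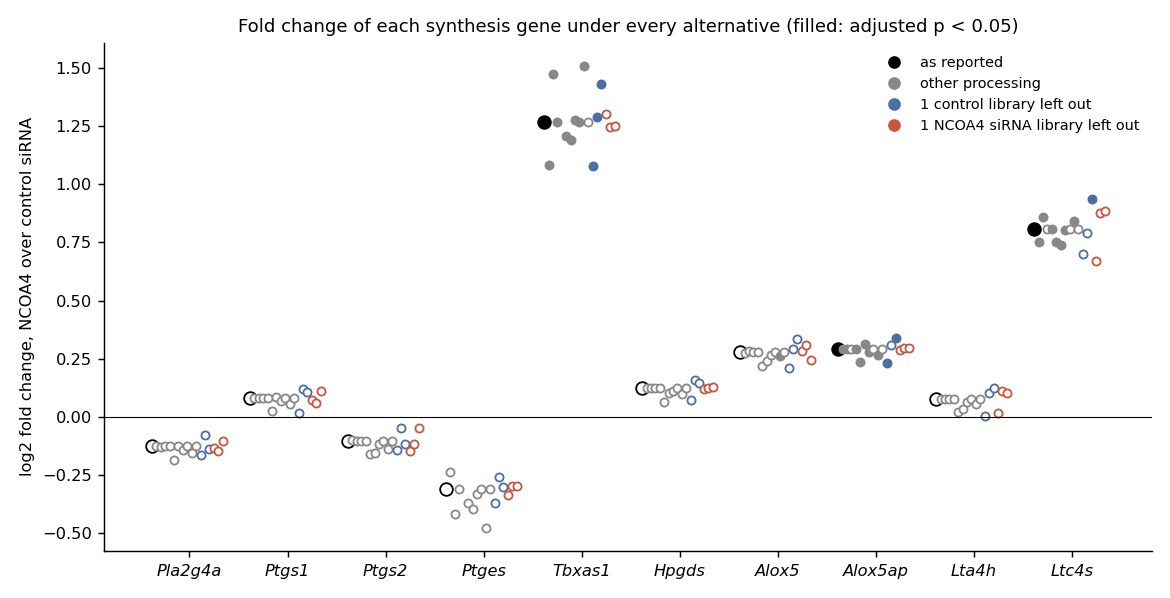
Log2 fold change of each synthesis gene (vertical) as reported and under every alternative in which it was tested, filled where the adjusted p is under 0.05. Tbxas1 stayed between 1.08 and 1.51 and Ltc4s between 0.67 and 0.94. The points of both are open for the 3 fits that leave out an NCOA4 siRNA library and for the replicate block. Those of Ltc4s are also open with no filter on low values, without a variance trend and without control replicate 1 or 2.

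The direction of every synthesis gene was the same under all alternatives in which it was tested, which are summarised in the plot of fold changes by setting. Ltc4s was called in 8 of 16 alternatives, Tbxas1 in 11 of 15, and Alox5ap passed the adjusted p in 9 of 16.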

How the data were processed

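The authors prepared stranded poly(A) libraries and deposited TPM per gene and library, with no scaling between libraries. The submitters' processing notes name Trimmomatic 0.33, FastQC, HISAT2 2.1.0, featureCounts, edgeR and the build mm10. The annotation version and the strand setting of the counting are not given in the sources used here. Of 55487 identifiers, 55227 were named by GENCODE M21 (GRCm38, the assembly of mm10).

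The test was limma 3.58.1 (R 4.3.3, Python 3.11.15) on log2(TPM + 0.5), with a variance trend and no block, over genes whose TPM averaged 0.5 or more. Genes were called where the fold change passed 1.5 and the Benjamini-Hochberg adjusted p was under 0.05. Single values were compared by exact permutation. Whole reads were rebuilt from TPM and GENCODE exon lengths, and 98.6% of 21055 named genes above 0 gave values within 0.02 of whole reads in all 6 libraries. They gave depth, counting error and a limma-voom alternative. The depth of 15502131 to 18282107 reads makes 1 read on a 2 kb gene worth 0.0825 to 0.0959 TPM, and counting errors cover counting alone. The fitting was checked on simulated data with equal spread in every library, unlike the data here, so that check does not bear on the calls reported.

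The 10 genes and the lists were chosen with earlier results of these data known. Named are all 10, Ncoa4, every called gene of the other lists with up to 3 more of the smallest adjusted p per list, up to 3 markers of the highest TPM per marker list, and the 3 genes most correlated with each called gene. Genes listed at 0 and a few others were named after their values were seen. Alternatives were other pseudocounts, filters, scalings and variance models, limma-voom, the replicate block and leaving out each library.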

Additional observations from a re-analysis of the deposited data

How the results depend on the processing

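Under 16 alternatives the 2 called synthesis genes became 1 with no filter on low values (Tbxas1), 1 with a mean TPM of at least 5 (Ltc4s, Tbxas1 and Ptges not being tested there), 1 without a variance trend (Tbxas1), 0 with the replicate block and 0 to 2 with a library left out. The 3 genes that passed the adjusted p became 1, 1 and 0 with no filter, no trend and the replicate block, and 0 to 3 with a library left out. Deviations of same-numbered libraries correlated at 0.028, -0.019 and 0.023, and the labels do not say whether same-numbered libraries were handled together. With the replicate block the adjusted p of Tbxas1 was 0.053, and 3 other eicosanoid genes passed instead of 6 (3 to 6 with a library left out). The median of the synthesis genes, 0.10, was 0.045 with median centring and 0.045 to 0.139 with a library left out. That of all tested genes, 0.031, moved as well, to -0.027 with median centring and 0.011 to 0.045 with a library left out. The log2 ratio of Tbxas1 to Ptges was 1.317 with a pseudocount of 1, 1.888 with 0.1 and 1.946 from group means, and that of Tbxas1 to Hpgds 1.347 with 0.1 and 1.363 from group means. Alox5ap to Alox5 went from -0.015 to 0.055 with a library left out. Ptger4 was -0.043 with median centring, -0.067 with quantile normalization, -0.011 with limma-voom and -0.104 to 0.084 with a library left out, and Ptger2 -0.264 to 0.067. Over all genes, 750 passed the adjusted p and 499 did with no filter, 404 without a trend, 1419 with limma-voom, 161 with the replicate block and 174 to 841 with a library left out. With limma-voom the genes called lower were 67 instead of 44, and the receptors that passed 3 instead of 1. Called were 163 genes, 87 with the block and 93 to 173 with a library left out. The cause of these differences was not tested, and fits that leave out a library also hold fewer samples. Of the synthesis genes, Ptges, Ltc4s and Tbxas1 had under 100 reads in every control library, and counting error there was 18.9, 19.2 and 11.3% of the mean. Some named genes of the other lists also had few control reads: 20 to 28 for Cmklr1, 17 to 23 for Cyp4f18, 12 to 16 for Mgst1, 8 to 16 for Fpr2 and 5 to 13 for Alox15.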
